A study of Mus musculus with 6 samples.

Results

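The genes described here encode liver-made proteins of complement, blood clotting and fibrinolysis. They are 36 genes chosen by name from the 46095 gene symbols of the expression table, and each of the 36 symbols was found there. Levels came from RNA-seq of mouse liver after 26 weeks on a high-fat diet, in 3 libraries of wild-type mice and 3 of ARRB1 knockouts. Both groups carry the strain label C57BL/6 and the cell type label hepatocyte. ARRB1 is beta-arrestin 1, an adaptor protein that binds activated G protein-coupled receptors. The genotype label is wild type for the controls and ARRB1-/- for knockout replicate 1, whereas those of knockout replicates 2 and 3 read ARRB2-/- and ARRB3-/-. Their titles name ARRB1, as does the series text, and the titles set the groups. The sex and age of the animals, the construction of the knockout allele and whether each library came from 1 animal are not given in the sources used here. All p-values therefore rest on the spread between libraries, which may be technical.

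Complement is a cascade of plasma proteins that marks and perforates microbes, and clotting is a cascade that ends in fibrin. Hepatocytes make most of these proteins, many as inactive precursors of proteases, together with the serine protease inhibitors (serpins) that restrain them. Complement is started by antibody, by lectins that bind sugars or by slow spontaneous turnover of C3. The routes meet at the cleavage of C3 and then of C5, and C5b with C6, C7, C8 and C9 forms the membrane attack complex, a pore. Fibrin is dissolved by plasmin, the active form of plasminogen.

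The targeted gene, Arrb1, had levels of 3.86, 22.7 and 16.9 FPKM across wild-type replicates 1 to 3, against 0.918, 1.05 and 1.16 FPKM across knockout replicates 1 to 3. Wild-type replicate 1 was the lowest of its group but above each knockout library. None of the 36 genes lies on chromosome 7, which carries Arrb1. FPKM is a level per length of the gene, scaled to the size of the library. Whole reads recovered from the FPKM steps summed to between 27628708 and 33013392 per wild-type library, and to 13788002, 34756993 and 28893733 for knockout replicates 1 to 3, so knockout replicate 1 was the shallowest. Of 12 hepatocyte markers, 11 were in the table, and their summed level was 53634 to 65731 FPKM in the wild-type libraries, against 49545 to 57578 FPKM in knockout. Albumin (Alb) was at 27739.7 to 34855 FPKM in the wild-type libraries, against 28667 to 35463 FPKM in knockout. The libraries also held markers of other liver cells. The summed level of 9 macrophage and Kupffer cell markers was 259 to 276 FPKM in the wild-type libraries, against 305 to 457 FPKM in knockout. That of 10 stellate and fibroblast markers was 122 to 144 FPKM in the wild-type libraries, against 147 to 227 FPKM in knockout, and that of 8 endothelial markers was 107 to 122 and 126 to 146 FPKM. Limma called 0 of the 9 macrophage and Kupffer cell markers, 3 of the stellate and fibroblast markers and 3 of the endothelial markers higher, and 1 of the 11 hepatocyte markers (Cps1) lower. Within the macrophage list the values differed in direction: Lyz2 was at 62.5, 56.7 and 66.9 FPKM in the wild-type libraries, against 87.8, 183 and 88.5 FPKM in knockout, while the Kupffer cell marker Timd4 was at 3.93, 4.2 and 3.58 FPKM, against 3.21, 1.27 and 3.03 FPKM. Fewer cells of a type and less RNA per cell cannot be told apart in such bulk libraries, and the part of other cells in the results below was not tested.

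The 36 genes spanned a wide range of levels. The fibrinogen chains Fgb, Fgg and Fga and the central complement component C3 had wild-type means of 3017, 2520.1, 2027 and 2208 FPKM. Plasminogen (Plg, 1097 FPKM), prothrombin (F2, 930.1 FPKM) and antithrombin (Serpinc1, 854 FPKM) followed. The lowest were Cfd (4.34 FPKM), Cfb (2.45 FPKM) and C2 (0.292 FPKM). C2 rested on 13 to 67 reads per library and was the 1 gene of the 36 below the mean of 1 FPKM required for testing. C2 and Cfb are both overlapped on the same strand by the gene Gm20547 in the GENCODE vM21 annotation, and Klkb1 by Gm45753. How reads in overlapping genes were counted is not given in the sources used here. The levels of C2, Cfb and Klkb1 are uncertain for that reason. A further uncertainty is that 11 of the 36 are overlapped by a gene on the opposite strand.

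Of the 35 tested genes, 3 were called lower in the knockout libraries and none was called higher. A gene counts as called when its limma p-value, adjusted over the 10633 tested genes, is under 0.05. The 3 were C8b and C8a, which encode chains of complement C8, and Klkb1, the gene of plasma prekallikrein. They are 8.57% of the tested members, whereas 1.60% of all tested genes were called lower and 5.30% higher. At an unadjusted p under 0.05, 15 members were lower, against 6.19% of all tested genes. The count in the higher direction was 2 members (Mbl2 and Cfd), against 19.1% of all tested genes. With limma's voom on recovered reads 6 members were called lower and 0 higher.

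Groups did not overlap, with all knockout libraries below all wild-type libraries, for 16 of the 35 members (45.7%). The same held for 7.81% of all tested genes. Among the hepatocyte markers, Apoa1, Serpina3k, Ass1, Cps1 and Ahsg also had all knockout libraries below all wild-type libraries. The groups overlapped for the hepatocyte markers Alb, Ttr, Apob, Hnf4a, Fah and Apoh. Groups without overlap in the higher direction were found for Mbl2 alone among the members, against 23.4% of all tested genes. The log2 fold change, knockout minus wild type on the log2(FPKM + 1) scale, was negative for 30 members and positive for 5, with a median of -0.16 beside 0.07 over all tested genes. Over all tested genes, 3867 fold changes were negative and 6766 positive. Other scalings left most members negative: 25 on the TPM scale, 32 with median-of-ratios scaling and 29 with quantile normalization. The median over all tested genes moved too, to 0.13, -0.01 and -0.01 in that order. Members without overlap in the lower direction numbered 14, 18 and 11 under these scalings, beside 5.75%, 15.3% and 14.3% of all tested genes. Mbl2 kept separate groups on the TPM scale and after quantile normalization but not after median-of-ratios scaling. Over all tested genes, 76.8% of the calls in the deposited values were in the higher direction. That share was 85.2% on the TPM scale, 59.9% with median-of-ratios scaling and 64.5% with quantile normalization.

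**Figure D1:**
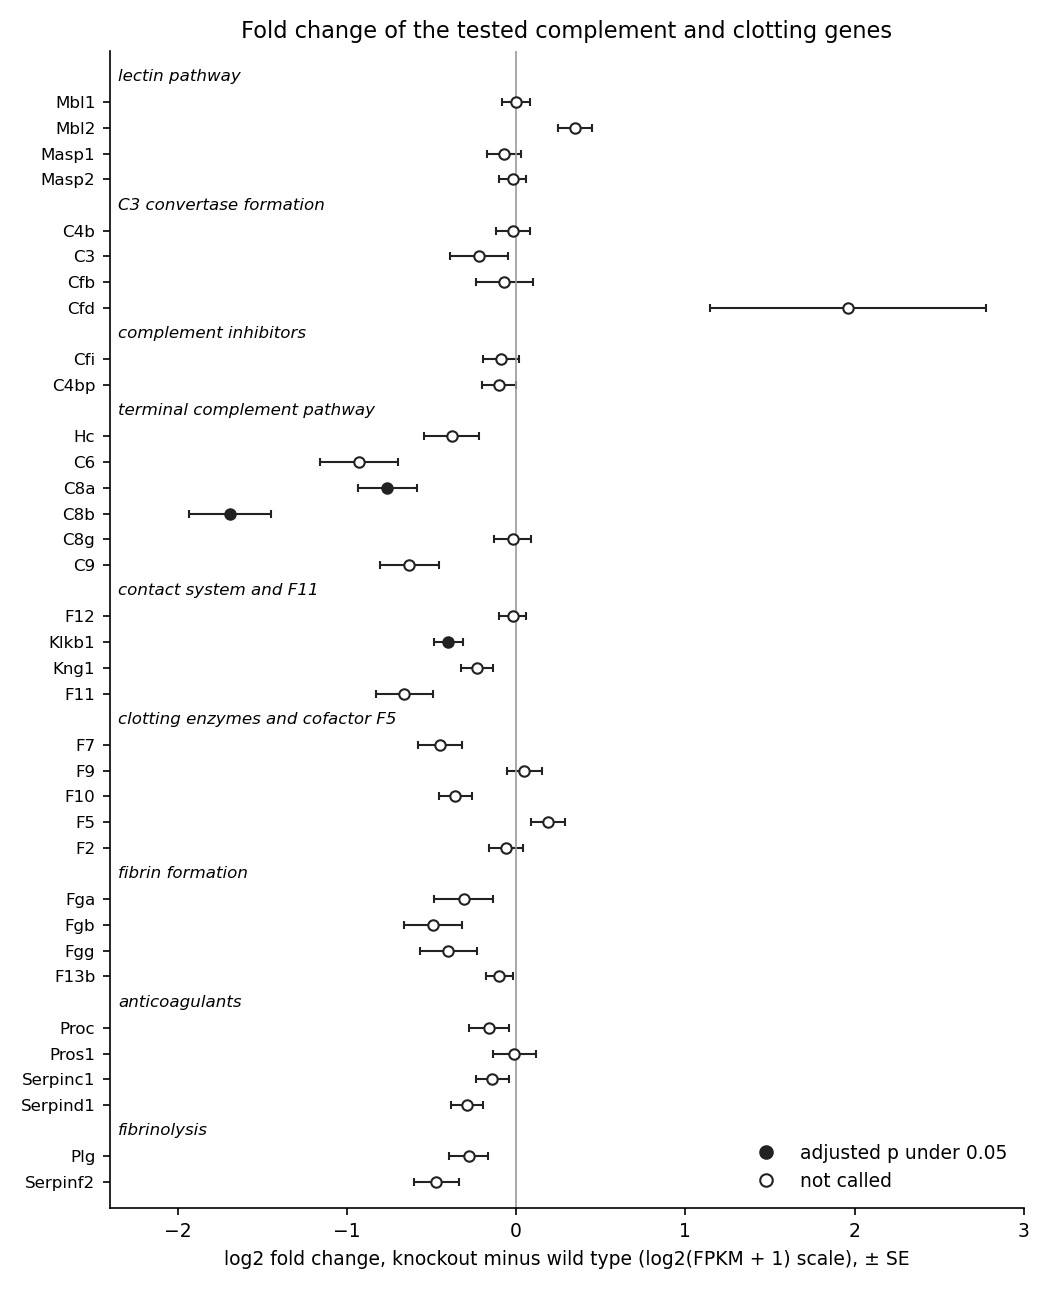
Log2 fold change (knockout minus wild type, on the log2(FPKM + 1) scale) of the 35 tested complement and clotting genes, ordered by role, with bars of ± SE from limma (3 libraries per group). Filled points are the 3 genes called at an adjusted p under 0.05 (C8a, C8b and Klkb1), and most open points lie left of 0.

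The terminal pathway had the lowest median of all roles. Its 6 genes are Hc (which encodes C5), C6, the C8 chains C8a, C8b and C8g, and C9, the protein that polymerises into the pore. Their median log2 fold change was -0.69, against -0.10 for the 29 tested members of other roles. C8a and C8b were called, 4 of the 6 had separate groups, and C8g had overlapping groups. The other roles had medians of -0.37 (fibrinolysis), -0.35 (fibrin formation), -0.32 (contact system with F11), -0.15 (anticoagulants), -0.09 (complement inhibitors), -0.06 (clotting enzymes with F5), -0.05 (C3 convertase formation) and -0.01 (lectin pathway).

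C8b, the beta chain of C8, had levels of 162, 196 and 238 FPKM across wild-type replicates 1 to 3, against 56.9, 44.2 and 86.7 FPKM across knockout replicates 1 to 3. The highest knockout library was thus well below the lowest wild-type library. The knockout mean was 31.5% of the wild-type mean, at 199 ± 37.7 and 62.6 ± 21.8 FPKM (SD, n = 3 each) and the log2 fold change was -1.69 ± 0.242 (SE; limma, adjusted p = 0.0115). An exact permutation test (two-sided) gave p = 0.1, the smallest possible with 3 against 3 libraries. Without wild-type replicate 2 the value remained -1.69 but the adjusted p was 0.0514, and the call held without any other single library.

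C8a, the alpha chain, was at 350.2, 372 and 322 FPKM in the wild-type libraries, against 205, 159.8 and 264 FPKM in knockout. The groups did not overlap. Means were 348 ± 24.8 and 209.7 ± 52.5 FPKM (SD, n = 3 each), and the log2 fold change was -0.76 ± 0.175 (SE; limma, adjusted p = 0.0457). This call lay close to the threshold. Leaving out single libraries ended it for wild-type replicates 1 to 3 (limma, adjusted p = 0.114, 0.148 and 0.0732) and for knockout replicates 1 and 2 (0.0878 and 0.111). It also ended after median-of-ratios scaling (0.0511) or quantile normalization (0.0700), and in 11 of 18 alternatives in all. The gene Gm17662 lies inside C8a on the opposite strand, and whether counting used strand is not given in the sources used here.

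C8g, the gamma chain, is a small lipocalin that is linked to the alpha chain in the C8 protein. It was at 283, 262 and 325 FPKM in the wild-type libraries, against 286, 269 and 302 FPKM in knockout, so the groups overlapped. The means were 290.0 ± 32.0 and 286 ± 16.2 FPKM (SD, n = 3 each), with an adjusted p of 0.936 (limma). C8g is overlapped on the opposite strand by Fbxw5, a gene with a mean of 18.8 FPKM, so the limit on strand holds here too.

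The 3 chains could be compared within each library, where library scaling cancels. The ratio of C8b to C8g was 0.574, 0.750 and 0.732 in wild type and 0.199, 0.164 and 0.288 in knockout, with means of 0.685 ± 0.0968 and 0.217 ± 0.0636 (SD, n = 3 each). The ratio of C8a to C8g was 1.24, 1.42 and 0.992 in wild type and 0.716, 0.594 and 0.877 in knockout. C8b was also lower relative to C8a, at 0.464, 0.528 and 0.738 in wild type and 0.278, 0.277 and 0.328 in knockout. None of these 3 ratios overlapped between the groups, and C8b differed by more than C8a. These and the later ratios were chosen after the values were seen and were not tested.

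**Figure D2:**
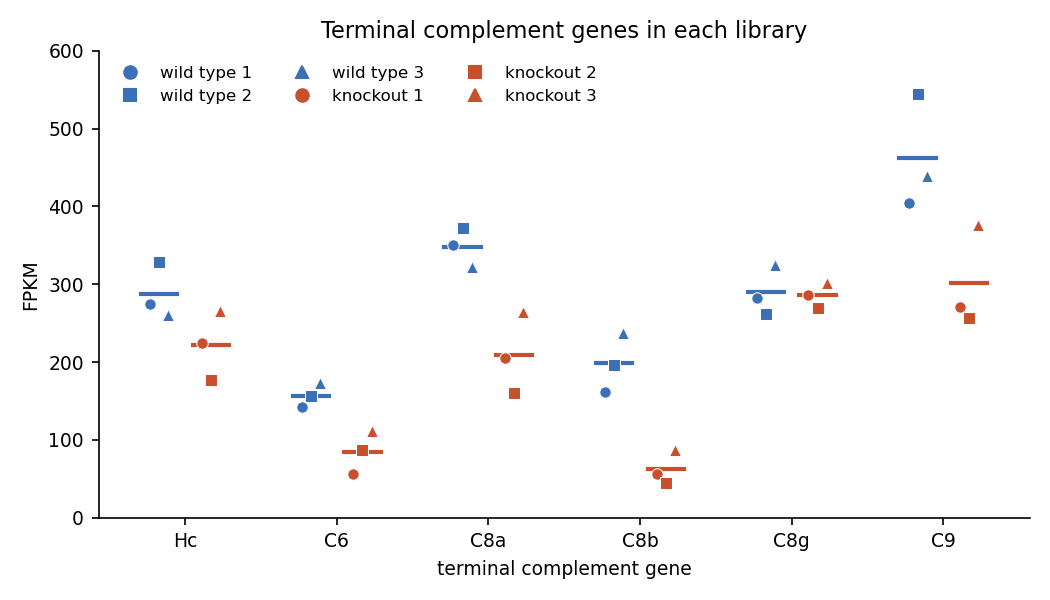
FPKM of the 6 terminal complement genes in each library, with group means as lines (3 wild-type libraries in blue, 3 knockout libraries in orange, marker shape by replicate). C8a, C8b, C6 and C9 have separate groups, whereas C8g and Hc overlap.

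C8b and C8a are neighbours on chromosome 4 (GRCm38), at 104766317 to 104804548 on the plus strand and 104815679 to 104876398 on the minus strand. They face each other with 11.1 kb between their ends, so their promoters lie apart. C8g lies on another chromosome, 2, at 25498651 to 25501719. The 250 bases before the RefSeq start of each gene (GRCm38.p6) are shown because the genes of a single protein had separate groups in C8a and C8b and overlapping ones in C8g. The windows are chr4:104876399-104876648, minus strand for C8a, chr4:104766067-104766316, plus strand for C8b and chr2:25501720-25501969, minus strand for C8g, each written 5′ to 3′ on the strand of its gene. Capitals mark a match to TTCNNNGAA, the core of sites bound by STAT factors, searched on both strands.
C8a: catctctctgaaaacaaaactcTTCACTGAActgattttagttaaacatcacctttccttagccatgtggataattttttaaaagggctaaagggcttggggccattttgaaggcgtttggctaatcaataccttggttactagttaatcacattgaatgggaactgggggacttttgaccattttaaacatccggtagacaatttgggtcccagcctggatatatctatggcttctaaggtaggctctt
C8b: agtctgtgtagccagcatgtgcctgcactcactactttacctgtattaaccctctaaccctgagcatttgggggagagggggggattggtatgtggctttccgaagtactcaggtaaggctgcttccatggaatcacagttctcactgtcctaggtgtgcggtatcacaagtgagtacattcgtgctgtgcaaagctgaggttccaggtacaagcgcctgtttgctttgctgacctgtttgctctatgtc
C8g: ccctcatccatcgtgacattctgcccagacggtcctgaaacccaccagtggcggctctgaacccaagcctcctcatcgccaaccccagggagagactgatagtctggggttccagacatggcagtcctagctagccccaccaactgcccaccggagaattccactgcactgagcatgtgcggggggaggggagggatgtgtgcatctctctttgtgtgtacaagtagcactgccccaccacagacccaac

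The C8a window holds 1 match, TTCACTGAA, and the windows of C8b and C8g hold none. The base composition differed, with 40.0% G and C for C8a, 50.4% for C8b and 59.2% for C8g. TTCNNNGAA was found in 7.02% of the 32851 windows of all genes and in windows of 6 of the 28 members that have one (C8a, F9, Fga, Fgb, Masp2 and Pros1). TTGCGCAA, a site of C/EBP factors, occurred in 0.164% of all windows and in none of the members' windows. The longer motifs of HNF1 and of a direct nuclear receptor repeat occurred in 0.0609% and 0.0335% of all windows, and in 1 (Hc) and 0 of the members. Such matches describe letters only.

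C6, which binds C5b, was at 142, 156 and 173 FPKM in the wild-type libraries, against 55.7, 87.6 and 112 FPKM in knockout. All knockout libraries were below all wild-type libraries. Its fold change (log2 -0.93 ± 0.230, SE) just missed the threshold (limma, adjusted p = 0.0536). It passed in 7 of 18 alternatives, among them TPM and median-of-ratios scaling and leaving out knockout replicate 3 (limma, adjusted p = 0.0477, 0.0404 and 0.0320). C9 was at 404, 545 and 439 FPKM in the wild-type libraries, against 270.2, 257 and 376 FPKM in knockout, again without overlap and not called (log2 fold change -0.63 ± 0.174, SE; limma, adjusted p = 0.0741). C9 passed in 2 of 18 alternatives, without knockout replicate 3 and with voom (limma, adjusted p = 0.0417 and 0.0486). Hc was at 275, 328 and 260.2 FPKM in the wild-type libraries, against 224, 177 and 266 FPKM in knockout. Here knockout replicate 3 lay above the lowest wild-type library, and the log2 fold change was -0.38 (limma, adjusted p = 0.189). C7, the remaining component of the pore, was at only 1.14 ± 0.406 FPKM in wild-type libraries, against 1.22 ± 0.672 FPKM in knockout (SD, n = 3 each). Its gene lies 174 kb from C6.

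The contact system starts clotting on charged surfaces. Factor XII (F12) and plasma prekallikrein (Klkb1) activate each other, high-molecular-weight kininogen (Kng1) carries prekallikrein and factor XI, and factor XI (F11) passes the signal to factor IX. Klkb1 was at 72.1, 81.7 and 77.7 FPKM in the wild-type libraries, against 59.6, 55.5 and 59.0 FPKM in knockout. The groups were separate and each was narrow. Klkb1 fell by 0.40 on the log2 scale (SE 0.0847; limma, adjusted p = 0.0347), a knockout mean of 75.2% of wild type. Leaving out any one library ended the call, with adjusted p of 0.0648, 0.110 and 0.0701 without wild-type replicates 1 to 3 and 0.0584, 0.128 and 0.0881 without knockout replicates 1 to 3.

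F11 was at 32.4, 32.6 and 38.4 FPKM in the wild-type libraries, against 20.3, 17.1 and 27.8 FPKM in knockout. It had the larger fold change of these neighbours but a wider spread, and was not called (log2 fold change -0.66 ± 0.169, SE; limma, adjusted p = 0.0585). F11 passed in 4 of 18 alternatives, among them the replicate block and voom (limma, adjusted p = 0.0389 and 0.0398). F12 had overlapping groups, at 249.6, 257 and 261 FPKM in the wild-type libraries, against 251, 258 and 249.7 FPKM in knockout. Within libraries, the ratio of Klkb1 to F12 was 0.289, 0.317 and 0.298 in wild type and 0.238, 0.215 and 0.236 in knockout. The ratio of F11 to F12 was 0.130, 0.127 and 0.147 in wild type and 0.0808, 0.0662 and 0.112 in knockout. Neither ratio overlapped between the groups. Kng1 was at 724 to 757 FPKM in the wild-type libraries, against 595 to 656 FPKM in knockout, separate but not called (log2 fold change -0.23; limma, adjusted p = 0.179). Its close copy Kng2 had means of 89.9 ± 6.28 and 98.5 ± 3.42 FPKM (SD, n = 3 each), and how reads shared by the copies were assigned is not given in the sources used here.

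**Figure D3:**
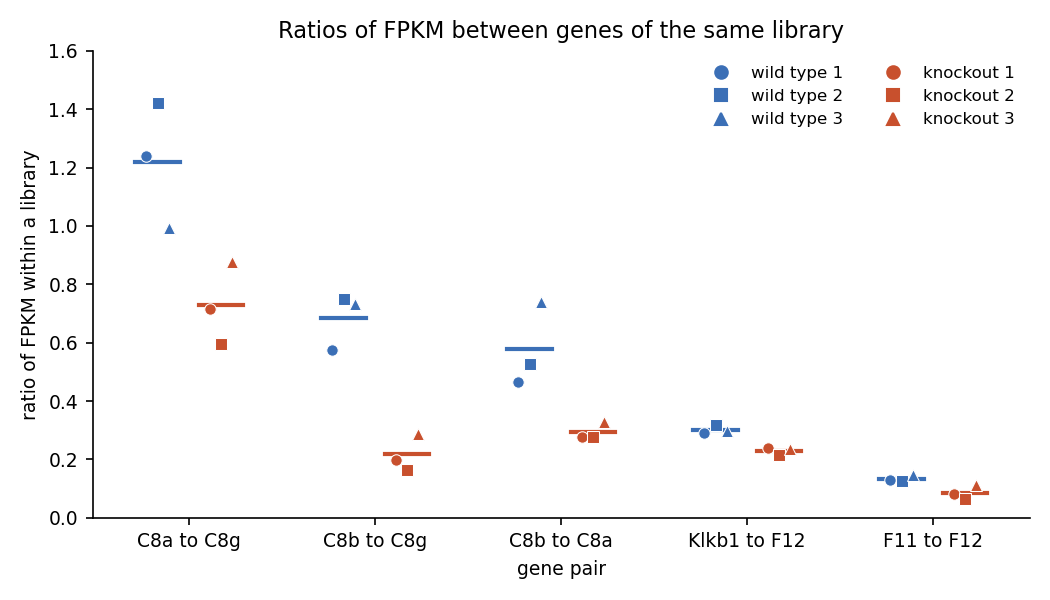
Ratio of FPKM between genes of the same library (no unit), for the C8 chains and for Klkb1 and F11 relative to F12, with group means as lines (3 libraries per group). All 5 ratios shown are lower in each knockout library than in each wild-type library. Other ratios were taken and are not shown. Of these, Fgg to Fga overlapped (1.19 to 1.30 in wild type, 1.13 to 1.20 in knockout), whereas Fgb to Fga and Serpinf2 to Plg did not.

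F11 and Klkb1 are paralogs that lie head to tail on chromosome 8 (GRCm38), on the minus strand, at 45241174 to 45262031 and 45266689 to 45294859, with 4.66 kb between them. The 250 bases before the RefSeq start of each are shown because both adjacent genes had separate groups. The windows are chr8:45294836-45295085, minus strand for Klkb1 and chr8:45262032-45262281, minus strand for F11, written 5′ to 3′. Neither holds a match to the motifs above, so all letters are small.
Klkb1: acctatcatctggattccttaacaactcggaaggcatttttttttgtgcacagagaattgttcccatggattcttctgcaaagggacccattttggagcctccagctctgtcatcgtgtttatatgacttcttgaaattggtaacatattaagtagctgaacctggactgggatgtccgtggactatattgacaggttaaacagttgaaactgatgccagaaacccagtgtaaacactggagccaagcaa
F11: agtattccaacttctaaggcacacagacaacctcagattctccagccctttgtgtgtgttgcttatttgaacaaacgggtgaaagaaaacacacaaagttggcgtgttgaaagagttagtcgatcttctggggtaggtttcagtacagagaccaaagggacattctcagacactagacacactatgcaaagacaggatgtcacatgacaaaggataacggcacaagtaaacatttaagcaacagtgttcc

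Other neighbours among the members also had fold changes of the same sign. A shared sign was common among the members in general, because 30 of the 35 were negative. F7 and F10, the factor VII and factor X genes, are 1.50 kb apart on chromosome 8. F7 was at 49.0, 56.9 and 48.9 FPKM in the wild-type libraries, against 42.2, 31.1 and 40.0 FPKM in knockout, with a log2 fold change of -0.45 (limma, adjusted p = 0.0821). F10 was at 176, 175 and 178 FPKM in the wild-type libraries, against 147, 122 and 144 FPKM in knockout, with a log2 fold change of -0.36 (limma, adjusted p = 0.0719). Both had separate groups and neither was called. The other vitamin K-dependent proenzymes did not separate: F9 was at 82.5 to 100.2 FPKM in the wild-type libraries, against 85.6 to 97.7 FPKM in knockout, and F2 at 926 to 936 and 843 to 980.5 FPKM. F5, the cofactor of factor X, was at 101 to 123 FPKM in the wild-type libraries, against 119 to 133 FPKM in knockout, one of the 5 members with a positive fold change.

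The 3 fibrinogen genes form a cluster on chromosome 3 and their products assemble in equal amounts. Fgb was at 2931, 2967 and 3152 FPKM in the wild-type libraries, against 2657, 1692 and 2205 FPKM in knockout. Fgg was at 2447, 2444 and 2669 FPKM in the wild-type libraries, against 2351, 1512 and 1959 FPKM in knockout. Fga was at 2059, 1975 and 2047 FPKM in the wild-type libraries, against 2086, 1291 and 1632 FPKM in knockout, so knockout replicate 1 lay above all wild-type libraries. The order of the knockout libraries was the same for each chain, with replicate 2 lowest and replicate 1 highest. Log2 fold changes were -0.49, -0.40 and -0.31 for Fgb, Fgg and Fga, and none was called (limma, adjusted p = 0.130, 0.193 and 0.311). The value for Fga turned to 0.04 with knockout replicate 1 as the lone knockout library. F13b, the carrier subunit of the fibrin-linking factor XIII, was at 91.5 to 99.1 FPKM in the wild-type libraries, against 85.5 to 90.3 FPKM in knockout (log2 fold change -0.10; limma, adjusted p = 0.489).

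Inhibitors of clotting and the fibrinolytic genes had negative differences, the largest for Serpinf2 and the smallest, near 0, for Pros1. Serpinf2, which encodes the plasmin inhibitor alpha-2-antiplasmin, was at 493, 478 and 472 FPKM in the wild-type libraries, against 409, 287 and 359 FPKM in knockout. Its groups were separate (log2 fold change -0.47 ± 0.135, SE; limma, adjusted p = 0.0819). Plg was at 1071 to 1141 FPKM in the wild-type libraries, against 791 to 987 FPKM in knockout, also separate and not called (log2 fold change -0.28; limma, adjusted p = 0.187). Among the anticoagulants, heparin cofactor II (Serpind1) had means of 292 ± 3.55 and 239 ± 19.0 FPKM and antithrombin (Serpinc1) of 854 ± 23.5 and 773 ± 41.3 FPKM (SD, n = 3 each, wild type first). Both had separate groups and neither was called, with log2 fold changes of -0.29 and -0.14 (limma, adjusted p = 0.105 and 0.387). Protein C (Proc) was at 262 ± 22.9 and 235 ± 28.9 FPKM and its cofactor protein S (Pros1) at 26.4 ± 3.69 and 26.1 ± 3.26 FPKM (SD, n = 3 each), with overlapping groups.

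Of the 4 lectin pathway members (Mbl1, Mbl2, Masp1 and Masp2), Mbl2 had separate groups and the other three overlapped. Mannose-binding lectins recognise microbial sugars and activate the MASP proteases. Mbl2 was at 276, 311 and 264 FPKM in the wild-type libraries, against 381, 347 and 355 FPKM in knockout, without overlap. The log2 fold change was 0.35 ± 0.0990 (SE) and the gene was not called (limma, adjusted p = 0.0781). It was called on the TPM scale (adjusted p = 0.0440) and after quantile normalization (adjusted p = 0.0346). Mbl1, its paralog, had means of 156 FPKM in both groups. Masp1 had means of 41.5 ± 4.67 and 39.4 ± 1.02 FPKM, and Masp2 of 34.4 ± 1.27 and 34.0 ± 1.86 FPKM (SD, n = 3 each, wild type first).

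C4b and C2 supply the classical and lectin convertase, and C3, Cfb and Cfd the alternative one. C3 was at 2336, 2555 and 1734 FPKM in the wild-type libraries, against 2040.1, 1638 and 1964 FPKM in knockout, with overlapping groups. C4b was at 13.9 ± 1.04 and 13.8 ± 1.39 FPKM and Cfb at 2.45 ± 0.692 and 2.25 ± 0.424 FPKM (SD, n = 3 each, wild type first). C2 was at 0.231 to 0.407 FPKM in the wild-type libraries, against 0.177 to 0.361 FPKM in knockout. The inhibitors also overlapped: Cfi, the protease that cuts C3b, was at 356 ± 5.35 and 336 ± 37.2 FPKM, and C4bp, its cofactor on C4b, at 235 ± 17.7 and 219 ± 15.3 FPKM (SD, n = 3 each, wild type first).

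Cfd, the factor D gene, is known for high expression in fat cells. It was at 10, 0.232 and 2.74 FPKM in the wild-type libraries, against 6.98, 9.51 and 34.4 FPKM in knockout, on 6 to 929 reads per library. It had the largest positive log2 fold change of the members, 1.96 ± 0.815 (SE; limma, adjusted p = 0.187), but the groups overlapped. Of 8 adipocyte markers, 3 were tested and 1 (Cidec) was called higher. Over the 8, the summed level was 1271 to 1650.5 FPKM in the wild-type libraries, against 844 to 1424 FPKM in knockout. Nearly all of that sum was Car3, at 1645, 1393 and 1265 FPKM in the wild-type libraries, against 1094, 1346 and 773 FPKM in knockout (limma, adjusted p = 0.225). Cidec, a lipid droplet gene, was at 1.40, 0.414 and 2.0 FPKM in the wild-type libraries, against 27.1, 68.9 and 63.1 FPKM in knockout (limma, adjusted p = 0.00195). The fat cell hormone gene Adipoq was at 0, 0 and 0.402 FPKM in the wild-type libraries, against 0, 0.185 and 0.723 FPKM in knockout. Plin1 was listed at 0 in all wild-type libraries and was at 0, 0.185 and 0.632 FPKM in knockout. Knockout replicate 3 had the highest value of Cfd, Adipoq and Plin1, and of Lep, Retn and Adig in the same list. Cidec and Pparg (8.59 FPKM) were highest in knockout replicate 2, and Car3 in wild-type replicate 1. Wild-type replicate 1 also had the highest Cfd of its group, with Adipoq and Plin1 at 0. The part of fat cells in the Cfd values was not tested.

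Knockout replicate 2 stood apart for these genes. It was the lowest of the 6 libraries for 22 of the 35 tested members, against 1 for knockout replicate 1 and 4 for knockout replicate 3. Knockout replicates 1 to 3 were the highest library for 8, 0 and 1 members, beside 2, 14 and 10 for wild-type replicates 1 to 3. No such count was made over all tested genes. The median log2 difference of the members from the wild-type mean was -0.08, -0.27 and -0.17 in knockout replicates 1 to 3, while that of all tested genes was 0.04, 0.13 and 0.06. Knockout replicate 2 also had the highest summed level of macrophage and Kupffer cell markers (457 FPKM, against 305 and 308 FPKM in knockout replicates 1 and 3) and of stellate and fibroblast markers (227 FPKM, against 158 and 147 FPKM). Within the macrophage list, Clec4f (44.3 FPKM) and Timd4 (1.27 FPKM) were at their lowest there. The endothelial (146 FPKM), cholangiocyte (97.9 FPKM), lymphocyte (7.96 FPKM) and erythroid (171 FPKM) sums were also highest there. The adipocyte, platelet, neutrophil and mesothelial sums were not. Knockout replicate 2 had the lowest hepatocyte sum (49545 FPKM). Its part in the members' values was not tested beyond leaving it out: without it the members' median was -0.12, and C8b (log2 fold change -1.47; limma, adjusted p = 0.0390) was the 1 member called.

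**Figure D4:**
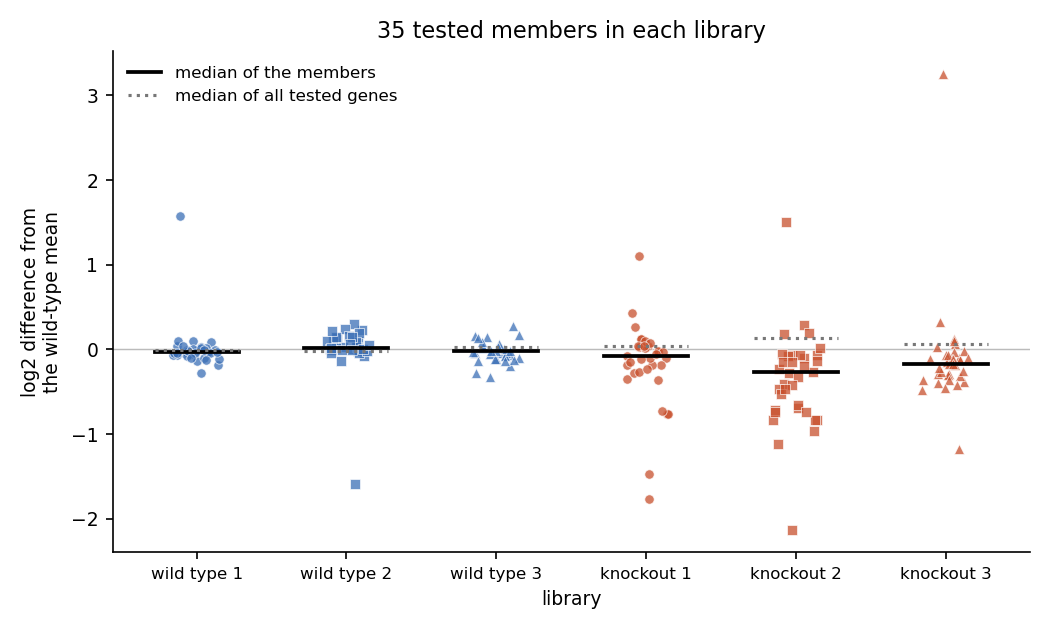
Log2 difference of each of the 35 tested members from its wild-type mean (log2(FPKM + 1) scale) in each library, with the median of the members as a solid line and that of all tested genes as a dotted line. Knockout replicate 2 has the lowest members' median (-0.27), and the members' median lies below that of all genes in each knockout library.

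Other complement genes were called in both directions. Of 37 listed, 36 were in the table and 30 were tested, with a median log2 fold change of 0.01. Limma called 2 of the 30 higher, beside 5.30% of all tested genes, and 3 lower (10%), beside 1.60%. All knockout libraries lay below all wild-type libraries for 9 of the 30 (30.0%), beside 7.81% of all tested genes, and above them for 6, beside 23.4%. Cd59a, which blocks assembly of the membrane attack complex on host cells, rose from 23.4, 22.5 and 25.5 FPKM to 32.9, 36.8 and 33.4 FPKM (limma, adjusted p = 0.0195). C5ar1, the receptor of the C5a fragment and a gene of myeloid cells, had values of 0.508, 0.564 and 0.896 FPKM in wild type, against 2.27, 2.55 and 1.51 FPKM in knockout (limma, adjusted p = 0.0233). C5ar1 passed the filter on low values only through its knockout libraries, so its call is no support for a difference. The factor H-related genes Cfhr2 (215, 245 and 257 FPKM to 168, 159.7 and 191 FPKM; limma, adjusted p = 0.0477) and Cfhr3 (8.30, 8.93 and 8.75 FPKM to 6.33, 6.32 and 6.42 FPKM; limma, adjusted p = 0.0301) fell, and their values are uncertain because the family has near-identical copies. Vsig4, a complement receptor of Kupffer cells, fell from 22.9, 24.6 and 20.1 FPKM to 17, 14.8 and 16.7 FPKM (limma, adjusted p = 0.0436). Beside it, the Kupffer cell marker Clec4f was at 55.2, 57.3 and 55.8 FPKM in wild type, against 56.6, 44.3 and 46.6 FPKM in knockout, and Timd4 was lower in each knockout library, neither of them called (limma, adjusted p = 0.293 and 0.190). From the same marker list, Marco was at 5.35, 5.52 and 3.37 FPKM in wild type, against 4.89, 4.96 and 5.32 FPKM in knockout. Cd5l was at 82.2, 82.2 and 66.0 FPKM in wild type, against 77.2, 91.7 and 77.0 FPKM in knockout. Both had overlapping groups. The part of Kupffer cells in the Vsig4 values was not tested. The C1q genes are made by macrophages, and C1qa (42.1 ± 0.304 and 49.6 ± 10.4 FPKM), C1qb (52.2 ± 1.55 and 65.1 ± 15.1 FPKM) and C1qc (44.6 ± 4.43 and 56.3 ± 13.6 FPKM) were not called. Leaving out wild-type replicate 1 or 2 or knockout replicate 2 ended each of the 5 calls (limma, highest adjusted p 0.0795 for Cd59a, 0.0941 for C5ar1, 0.160 for Cfhr2, 0.102 for Cfhr3 and 0.143 for Vsig4). Leaving out knockout replicate 1 ended all but that of Cd59a, knockout replicate 3 all but that of C5ar1, and wild-type replicate 3 those of Cfhr2 and Cfhr3.

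Of 36 other clotting and fibrinolysis genes, all in the table, 28 were tested, with a median log2 fold change of -0.02. Limma called 1 of the 28 higher, beside 5.30% of all tested genes, and 2 lower (7.14%), beside 1.60%. All knockout libraries lay below all wild-type libraries for 7 of the 28 (25.0%), beside 7.81% of all tested genes, and above them for 5, beside 23.4%. Serpine2, an inhibitor of thrombin and of plasminogen activators, fell from 15.1, 14.9 and 23.8 FPKM to 6.37, 6.26 and 9.12 FPKM (limma, adjusted p = 0.0192). Cpb2, whose product protects fibrin from plasmin, fell from 281, 284 and 243 FPKM to 199.5, 179 and 205 FPKM (limma, adjusted p = 0.0399). Plau, the urokinase gene, had values of 0.730, 0.749 and 0.831 FPKM in wild type, against 2.30, 3.42 and 1.49 FPKM in knockout (limma, adjusted p = 0.0402). Plau too passed the filter only through its knockout libraries, so its call is no support for a difference. Leaving out wild-type replicate 2 or knockout replicate 2 ended each of the 3 calls (limma, highest adjusted p 0.0816 for Serpine2, 0.138 for Cpb2 and 0.128 for Plau). Those of Cpb2 and Plau also ended without wild-type replicate 1 or knockout replicate 1, that of Plau without wild-type replicate 3 and that of Cpb2 without knockout replicate 3. Of 6 platelet and megakaryocyte markers, Pf4, Ppbp, Gp9 and Gp1bb were listed at 0 in each of the 6 libraries, whereas Itga2b was at 0.369 to 0.921 FPKM and Itgb3 at 1.06 to 1.76 FPKM.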

How the data were processed

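The deposited table holds FPKM values made by the authors, 1 per gene symbol and library. The labels' protocols name Trizol extraction and an Illumina TruSeq kit. The submitters' processing notes name Bowtie 0.12.2, HISAT2 and the builds mm8 and mm10. Their roles, the annotation, strandedness and the treatment of shared reads are not given in the sources used here.

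Limma 3.58.1 (R 4.3.3, eBayes with trend) was fitted to log2(FPKM + 1) over the 10633 genes whose mean reached 1 FPKM. Genotype was the single covariate, tests were two-sided, and p-values were adjusted by Benjamini-Hochberg over these genes. Fold changes understate low genes. For depth, whole reads were recovered from the steps of the FPKM values (17549 of 17549 genes above 0 in at least 4 libraries, tolerance 0.01 reads). The fit was tested on simulated data with 100 genes changed 2-fold and 100 changed 4-fold. It recovered 72.0% and 92.0% of them, and 8 of its 172 calls were unchanged genes. Changes below 2-fold were not simulated.

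The members and gene lists were chosen with earlier results of these data known. Values per library are given for called members and the 8 others with the largest fold change, and for related genes when called (at most 8 per list). Other per-library values, the ratios and the neighbours were chosen after values were seen. Positions are from GENCODE vM21 (GRCm38, which is mm10), matched for 36 of 36 members. Promoter windows are from RefSeq (GRCm38.p6), matched for 28 members, without the bases after the start. Alternatives used a 0.1 FPKM pseudocount, all genes, a 5 FPKM minimum, TPM, median-of-ratios and quantile scaling, eBayes without trend or robust, array weights, a replicate block, each library left out, and, chosen after seeing the data, voom on recovered reads and knockout replicate 1 as the lone knockout library. Plots used Python 3.11.15 and matplotlib 3.10.9.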

Additional observations from a re-analysis of the deposited data

How the results depend on the processing

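Over all tested genes, 564 were called higher and 170 lower. With 1 library left out these counts ran from 94 to 422 and from 54 to 119. The higher count was 990 with TPM, 371 with quantile normalization, 346 with median-of-ratios scaling, 280 with the replicate block, 88 with no filter and 30 with knockout replicate 1 as the lone knockout library. The lower count was 58 with no filter and 42 with that lone library, whose spread was assumed to match that of wild type. The 3 members called lower became 0 with no filter, 5 with the filter at 5 FPKM, 6 with voom, 1 (C6) with the lone library and 0 to 5 with 1 library left out (0 without wild-type replicate 2, 5 without knockout replicate 3, 1 without any other). On the TPM scale and after quantile normalization 1 member (Mbl2) was called higher. The members' median of -0.16 ran from -0.25 to -0.12 with 1 library left out and was -0.26 after median-of-ratios scaling, which moved the median of all genes by -0.09. Fga, at -0.31, turned to 0.04 with the lone library. The causes were not tested.

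Of the related complement genes, 2 were called higher and 3 lower. Both counts were 0 with no filter, with the replicate block and with the lone library. With 1 library left out they ran from 0 to 2 and from 0 to 1. The higher count was 1 with the filter at 5 FPKM and 4 with voom, and the lower count was 1 without trend. Of the related clotting genes, 1 was called higher and 2 lower. Both were 0 with no filter and with the lone library, and each ran from 0 to 2 with 1 library left out. The higher count was 0 with the filter at 5 FPKM and with the replicate block, and the lower count was 1 with the replicate block and after quantile normalization.

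Deviations from the group means had correlations of 0.17, -0.06 and 0.10 between same-numbered libraries of replicates 1 to 3. Not every library correlated best with its own number. With 3 libraries per group, these correlations cannot settle whether same-numbered libraries share more than a number. With the replicate block 3 members were called lower, C6, C8b and F11. The 15 tested members described by their levels without a fold change had log2 fold changes of at most 0.22 in size, of which 12 turned sign in at least 1 of the 18 alternatives and 0 were called in any. Few reads limit C2 (13 to 67 reads) and the lowest Cfd value (6 reads, in wild-type replicate 2). Cfd ran up to 929 reads, and its lowest count was not in the shallowest library (knockout replicate 1, 90 reads).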
